A study of Mus musculus with 6 samples.

Results

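The genes described are the sperm-egg fusion genes of the mouse testis: Izumo1, Izumo2, Izumo3, Izumo4, Spaca6, Tmem95, Dcst1 and Dcst2. They were chosen by symbol as genes whose proteins sit on or in sperm and belong to, or are named after, the families that act when sperm and egg membranes merge. All 8 were found among the 45777 genes of the deposited table, and all 8 passed the filter on low counts that left 25073 genes for testing. Testis RNA came from wild-type mice after 16 weeks on an ethanol LDC liquid diet (3 libraries, ethanol-fed) or the control LDC liquid diet (3 libraries, control-fed). Each mouse had 10 mL of liquid diet per day, and feeding was preceded by 5 days on the control diet. The labels give no age or strain and do not tie libraries to separate animals. The p-values therefore rest on the spread among libraries alone, and that spread may be technical.

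Fusion is the last step of fertilization, after sperm have passed the zona pellucida. IZUMO1, an immunoglobulin-like protein that is exposed on the sperm head after the acrosome reaction, binds the receptor JUNO on the egg membrane. SPACA6, TMEM95 and the DC-STAMP-domain proteins DCST1 and DCST2 are also needed: male mice that lack any of them make motile sperm that reach the egg and do not fuse with it. The genes are transcribed in germ cells of the testis during and after meiosis, well before the proteins act.

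Sequence around the start sites is shown first because it separates the members. Among the members with a window Izumo1 alone holds a complete cAMP response element, the letters read by CREB and CREM factors. Dcst1 and Dcst2 lie back to back at the starts that their windows use. Sequences and coordinates are those of RefSeq on GRCm38.p6 (mm10), and a promoter window of 300 bases, from 250 before to 50 after a start, was found for 7 members, all but Izumo4. The first line gives the 250 bases before the start of Izumo1 (chr7:45621561-45621810, plus strand), with the complete element TGACGTCA in capitals. It begins 96 bases before the start. The second line gives a stretch of 29 bases before the start of Tmem95 (chr11:69878247-69878275, minus strand), with the half-site TGACG in capitals. This half-site begins 208 bases before the start that the window uses, and that start lies inside the locus span given below. The third line gives the 65 bases that separate the start sites that the windows of Dcst1 and Dcst2 use (chr3:89365254-89365318, plus strand). The RefSeq span of Dcst2, given below, begins further upstream, inside the span of Dcst1.
Izumo1: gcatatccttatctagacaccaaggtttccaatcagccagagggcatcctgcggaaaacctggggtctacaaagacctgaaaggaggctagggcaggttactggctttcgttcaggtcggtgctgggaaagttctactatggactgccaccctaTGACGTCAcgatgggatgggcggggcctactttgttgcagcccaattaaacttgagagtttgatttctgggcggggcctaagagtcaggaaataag
Tmem95: ctttcagaaccaTGACGtgtaaaggccac
Dcst1-Dcst2: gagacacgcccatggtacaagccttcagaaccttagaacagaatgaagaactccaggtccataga

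On either strand, TGACGTCA stood in 1 of the 7 member windows and in 1.79% of all 32851 windows of the same length. The half-site TGACG, which lies inside the complete element, stood in the windows of Izumo1 and Tmem95 and in 20.81% of all windows. GTTGCC, an RFX half-site, was found for Spaca6, 53 bases before the start, and in 12.51% of all windows. CCAAT was found for Izumo1 and Izumo3 and in 37.41% of all windows, and TATAAA for 0 of the 7 and in 13.62% of all windows. These matches describe letters only and show no binding.

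The loci lie on 6 chromosomes. Izumo1 (Gene ID 73456) spans 45621811 to 45627242 and Izumo2 (Gene ID 75510) 44708698 to 44719848, both on the plus strand of chromosome 7. Izumo3 (Gene ID 69314) spans 92144318 to 92147225 on the minus strand of chromosome 4, and Izumo4 (Gene ID 71564) 80702015 to 80705382 on the plus strand of chromosome 10. Spaca6 (Gene ID 75202) lies on the plus strand of chromosome 17 from 17826085 to 17843010 and surrounds the microRNA genes Mir99b, Mirlet7e and Mir125a, which had at most 3 reads each in any library. Tmem95 (Gene ID 100503361) lies on the minus strand of chromosome 11 from 69876054 to 69878171. On chromosome 3, Dcst1 (Gene ID 77772) runs from 89365253 down to 89350219 on the minus strand, and Dcst2 (Gene ID 329702) runs on the plus strand to 89377643.

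The RefSeq span of Dcst2 starts at 89350417 and so covers nearly all of Dcst1 on the other strand. In GENCODE M21, on the same build, the genes share 0 exon bases. There, however, no exon of Dcst2 reaches as far as the RefSeq start, and RefSeq exons were not compared. Whether the counting used strand is not given in the labels, headers or notes. Any reads of either gene within the span of the other are therefore uncertain. Dcst1 also shares 1268 of its 5241 GENCODE exon bases with Gm10702 on the other strand, whose reads are not given here. Izumo1 shares 654 of its 2992 GENCODE exon bases with Rasip1 on the same strand. Its single RefSeq transcript, however, ends before Rasip1, and Rasip1 had at most 212 reads in a library.

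**Figure D1:**
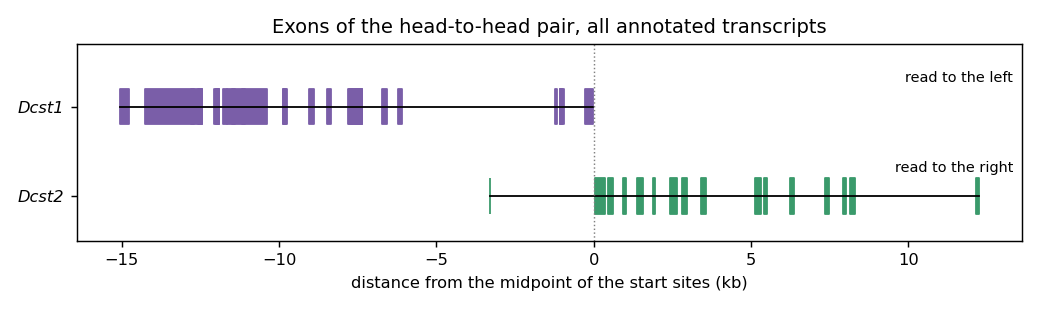
Exons of Dcst1 (upper) and Dcst2 (lower) from all GENCODE M21 transcripts, as boxes along the distance in kb from the midpoint of the start sites that their promoter windows use. Lines span each gene. The pair is read outwards from neighbouring first exons, and a short upstream exon of Dcst2 lies within an intron of Dcst1.

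Library totals ranged from 38935654 to 43399317 reads with ethanol and from 43389811 to 47420249 reads in controls. Single members had 229 to 5440 reads in a library. Together the 8 took 0.0568%, 0.0556% and 0.0563% of the counts in ethanol libraries 1, 2 and 3, against 0.0578%, 0.0578% and 0.0630% in control libraries 1, 2 and 3. Spermatid genes that mark testis were abundant: the elongating spermatid list of 15 genes summed to 21961 to 24975 CPM with ethanol and 21664 to 24099 CPM in controls, where CPM is the read count scaled to library size (TMM). Of 4 epididymal genes, Lcn5 and Spink13 had 0 reads in every library, Crisp4 had 6, 7 and 3 reads in ethanol libraries 1, 2 and 3 and 0 in each control library, and Defb15 had 40 to 67 reads in every library.

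Levels of different members were compared in TPM, which is scaled to transcript length. Izumo2 was the highest member in every library, with 195.2, 198.8 and 221.1 TPM in ethanol libraries 1, 2 and 3 and 203.0, 213.0 and 238.5 TPM in control libraries 1, 2 and 3. Over the 6 libraries the median was 208.0 TPM for Izumo2, 171.5 for Izumo3, 146.8 for Izumo4, 131.4 for Izumo1, 65.6 for Dcst1, 49.8 for Spaca6, 44.1 for Dcst2 and 14.3 for Tmem95. The same order held in 5 of the 6 libraries. In control library 3, Izumo1 stood at 139.4 TPM and Izumo4 at 138.1 TPM. The order depends on the length behind each TPM value. For Izumo2 the length, derived as described below, was 781.3 to 795.8 bases, the shortest among the members. In CPM, Izumo2 averaged 74.7 with ethanol and 82.2 in controls, below Dcst1 at 77.9 and 83.3.

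In TPM the IZUMO family thus stood above the other members, and Tmem95 below all of them. The median of Izumo2 was 14.5 times that of Tmem95. Across libraries the ranges of Izumo3 and Izumo4, of Izumo4 and Izumo1, and of Spaca6 and Dcst2 overlapped, while those of the other neighbours did not. Within a library, Izumo3 lay above Izumo4 and Spaca6 above Dcst2 in 6 of 6 libraries, and Izumo4 above Izumo1 in 5 of 6. Of all tested genes, 96.7% had a lower median TPM than Izumo2, 94.3% lower than Izumo1 and 67.7% lower than Tmem95.

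**Figure D2:**
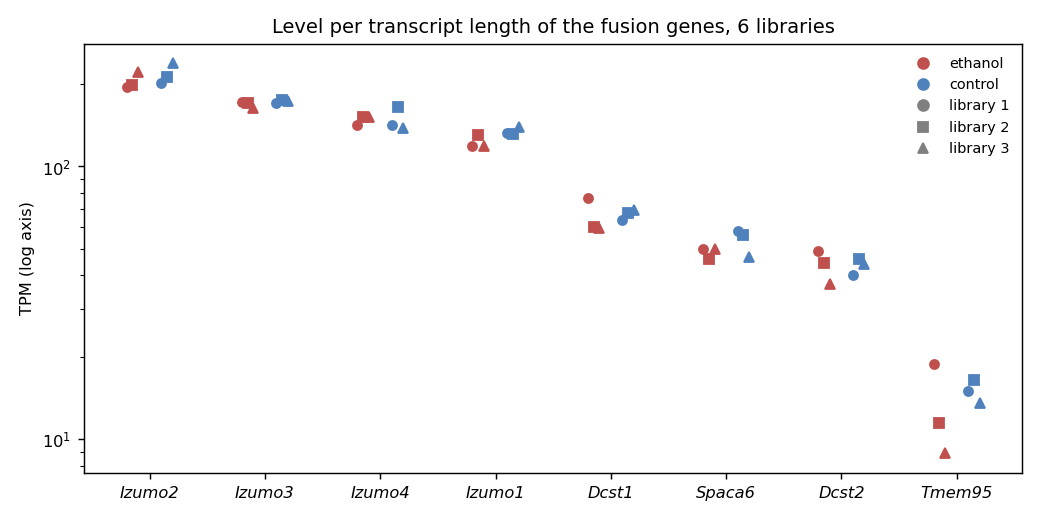
TPM (log axis) of each member in 3 ethanol libraries (red, left) and 3 control libraries (blue, right), with members ordered by their median over the 6 libraries. Izumo2 is highest, at 195.2 to 238.5 TPM, and Tmem95 lowest, at 8.87 to 18.9 TPM.

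The comparison of the diets asks what long ethanol feeding does to RNA levels in testis. None of the 8 members passed the edgeR quasi-likelihood test in either direction, with p-values adjusted by Benjamini-Hochberg over all 25073 genes. In the same test 0 genes of the whole table were called higher (0%) and 0 lower (0%), with a lowest adjusted p of 0.0515. DESeq2 also called 0 of the 8, while it called 1.11% of 18265 genes higher and 0.695% lower. The fitted log2 fold changes of the members, ethanol over control, lay between -0.27 and -0.05 with a median of -0.09, against a median of 0.0065 over all tested genes. All 8 were below 0, as were 48.5% of all tested genes. The sign of Izumo4 depended on the scale, and that of Dcst2 on how the TPM values were averaged. The log2 ratio of mean TPM was 0.0035 for Izumo4 and 0.0032 for Dcst2, both below the median of 0.0457 over 13227 genes on that scale. With log2(TPM + 1) taken in each library, the log2 fold change was 0.00718 for Izumo4 and -0.00338 for Dcst2. At an unadjusted p under 0.05 there was 1 member on the lower side (Izumo1) and 0 on the higher side, where 5.89% and 7.45% of all tested genes stood. The diets overlapped in CPM for all 8 members. Of all tested genes, 9.02% lay lower and 9.76% higher with ethanol without overlap, 18.8% in all.

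Izumo1, which carries the JUNO-binding surface, had 85.7, 99.4 and 95.7 CPM in ethanol libraries 1, 2 and 3, against 105.9, 98.4 and 116.2 CPM in control libraries 1, 2 and 3. Control library 2 lay below ethanol library 2, so the diets overlapped by that pair alone. The means were 93.6 ± 7.08 CPM with ethanol and 106.8 ± 8.91 CPM in controls (SD, n = 3 each). The log2 fold change was -0.19 (SE 0.08, edgeR adjusted p = 0.327), with a 95% interval of -0.36 to -0.02 that is not adjusted for the number of genes. As a fold this is 0.876, with bounds of 0.778 and 0.987.

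Izumo2, a family member whose part in fertilization is not established, had 67.2, 71.3 and 85.6 CPM in ethanol libraries 1, 2 and 3, against 77.1, 75.6 and 93.8 CPM in control libraries 1, 2 and 3. In both diets the library numbered 3 was the highest, and the diets overlapped. The log2 fold change was -0.14 (SE 0.10, edgeR adjusted p = 0.609). Izumo3, which mice need to form the acrosome, had 105.7, 111.4 and 112.5 CPM with ethanol, against 116.2, 111.2 and 123.4 CPM in controls. Its libraries lay close together, and its log2 fold change was -0.09 (SE 0.06, edgeR adjusted p = 0.582).

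Izumo4, the family member that lacks a membrane-spanning segment, had 85.1, 81.8 and 88.1 CPM in ethanol libraries 1, 2 and 3, against 86.3, 91.5 and 90.8 CPM in control libraries 1, 2 and 3. Only ethanol library 3 reached the control range. The log2 fold change was -0.07 (SE 0.06, edgeR adjusted p = 0.647), with a 95% interval of -0.21 to 0.06.

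Spaca6 encodes an immunoglobulin-like sperm membrane protein that resembles IZUMO1 in its fold and assembles with it. It had 59.5, 56.2 and 54.3 CPM in ethanol libraries 1, 2 and 3, against 60.1, 55.1 and 60.2 CPM in control libraries 1, 2 and 3. The diets overlapped almost fully. The log2 fold change was -0.05 (SE 0.07, edgeR adjusted p = 0.824), and the 95% interval reached from a fold of 0.874 to 1.08.

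Tmem95, a small membrane protein of the sperm head, had 10.7, 6.81 and 5.58 CPM in ethanol libraries 1, 2 and 3, against 9.42, 9.44 and 8.86 CPM in control libraries 1, 2 and 3. Ethanol library 1 lay above every control and ethanol libraries 2 and 3 below every control. The means were 7.69 ± 2.67 CPM with ethanol and 9.24 ± 0.33 CPM in controls (SD, n = 3 each). The log2 fold change was -0.27 (SE 0.19, edgeR adjusted p = 0.594), and its 95% interval of -0.69 to 0.16 was the widest among the members. The exact Poisson 95% interval was 9.70 to 11.8 CPM in ethanol library 1 and 4.88 to 6.35 CPM in ethanol library 3, and intervals of this kind cover counting error only. Without ethanol library 1 the log2 fold change was -0.58 (edgeR adjusted p = 0.167), and without ethanol library 3 it was -0.09 (adjusted p = 0.868).

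The spread of Tmem95 was set beside that of 1254 genes of like mean level. On the log2 CPM scale its SD over the ethanol libraries was 0.48, larger than in 99.1% of those genes, and over the control libraries it was 0.05, larger than in 12.6% of them. No other member stood this high in the ethanol libraries. The next was Izumo2, whose SD was larger than in 93.5% of genes of its level in ethanol libraries and also in 93.5% in control libraries. Kctd11, which lies just upstream of Tmem95 on the same strand, had at most 32 reads in any library.

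**Figure D3:**
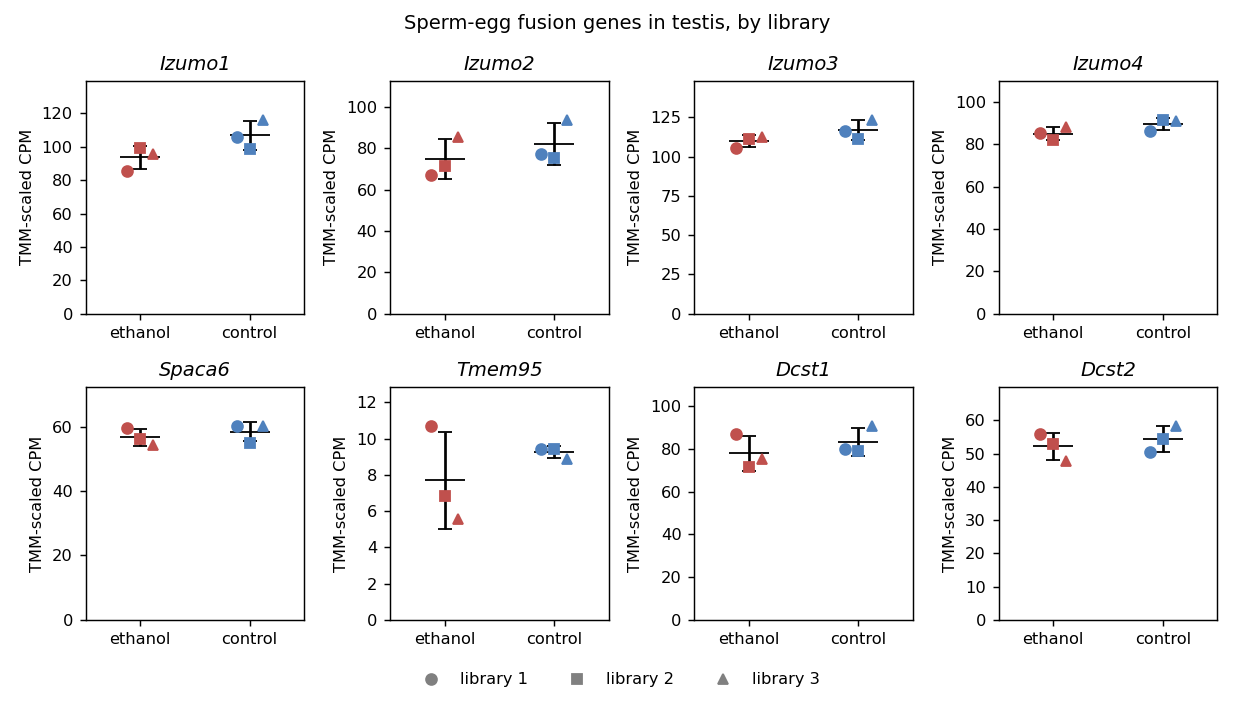
TMM-scaled CPM of each member by library, ethanol at left and control at right in each panel; horizontal bars are means and error bars SD over 3 libraries. The diets overlap in all 8 panels, and Tmem95 is spread from 5.58 to 10.7 CPM with ethanol against 8.86 to 9.44 CPM in controls.

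DCST1 and DCST2 are multi-pass membrane proteins that form a complex with each other. Dcst1 had 87.1, 71.3 and 75.2 CPM in ethanol libraries 1, 2 and 3, against 80.0, 79.2 and 90.7 CPM in control libraries 1, 2 and 3. Dcst2 had 55.8, 53.0 and 47.6 CPM with ethanol, against 50.4, 54.3 and 58.3 CPM in controls. In both genes ethanol library 1 was the highest of the ethanol libraries and control library 3 the highest of the controls, and the diets overlapped. The log2 fold changes were -0.10 (SE 0.09, edgeR adjusted p = 0.672) for Dcst1 and -0.06 (SE 0.08, adjusted p = 0.799) for Dcst2.

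The ratio of Dcst1 to Dcst2 in TPM was 1.57, 1.35 and 1.60 in ethanol libraries 1, 2 and 3, against 1.59, 1.47 and 1.57 in control libraries 1, 2 and 3. The 65 bases shown above separate the start sites that the windows of the pair use, and whether this bears on the ratio was not tested. The ratio of Izumo1 to Spaca6, which lie on different chromosomes, was 2.39, 2.85 and 2.38 with ethanol, against 2.28, 2.35 and 2.99 in controls. The diets overlapped in both ratios.

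**Figure D4:**
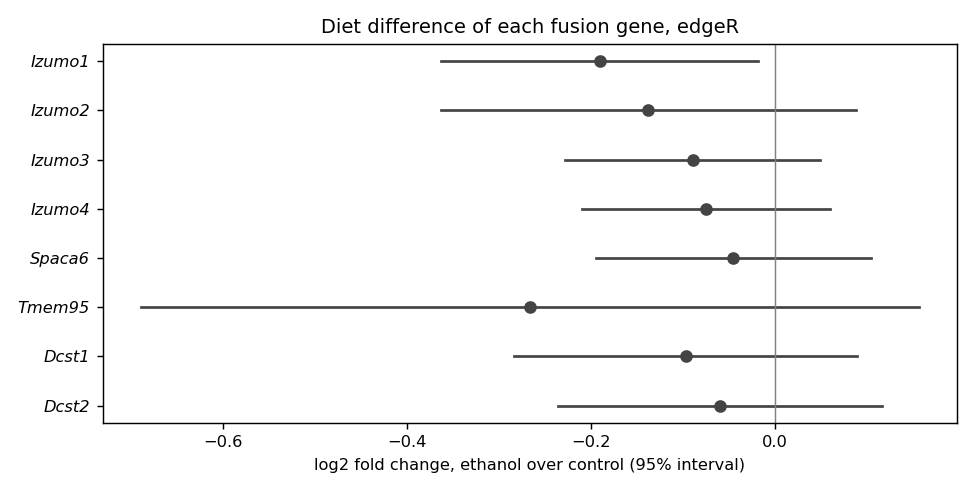
Log2 fold change of each member, ethanol over control, from edgeR, with 95% intervals that are not adjusted for the number of genes. All 8 points lie between -0.27 and -0.05, and the interval of Izumo1 alone lies wholly below 0, without passing the adjusted test.

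The counts and the length-scaled values differed for Spaca6 and Izumo4. The transcript length behind a value was derived from the deposited count, FPKM and library total. For Spaca6 it was 2737, 2675 and 2242 bases in ethanol libraries 1, 2 and 3, against 2132, 2173 and 2578 bases in control libraries 1, 2 and 3. The longest was 1.28 times the shortest, a larger ratio than in all but 2.92% of 13223 genes that averaged 5 CPM or more, whose median ratio was 1.01. Ethanol library 3 and control library 3 each went against their own diet, so the diets overlapped.

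In TPM, Spaca6 therefore stood at 49.7, 45.9 and 49.8 in ethanol libraries 1, 2 and 3, against 58.1, 56.2 and 46.7 in control libraries 1, 2 and 3, and the log2 ratio of the means was -0.15 in TPM and -0.04 in CPM. The median of that ratio over 13227 genes was 0.0457 in TPM and -0.0090 in CPM. For Izumo4 the derived length was 1376, 1177 and 1188 bases with ethanol, against 1255, 1229 and 1314 bases in controls, with 6.75% of genes at a larger ratio. The table lists 20 transcripts for Spaca6 and 24 for Izumo4, and 1 each for Izumo1 and Dcst1, whose derived lengths changed by a factor of 1.01 at most. The ratio did not simply follow the number of transcripts. It was 1.022 for Dcst2 with 13, 1.018 for Izumo2 with 8, 1.013 for Izumo3 with 5 and 1.027 for Tmem95 with 3.

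**Figure D5:**
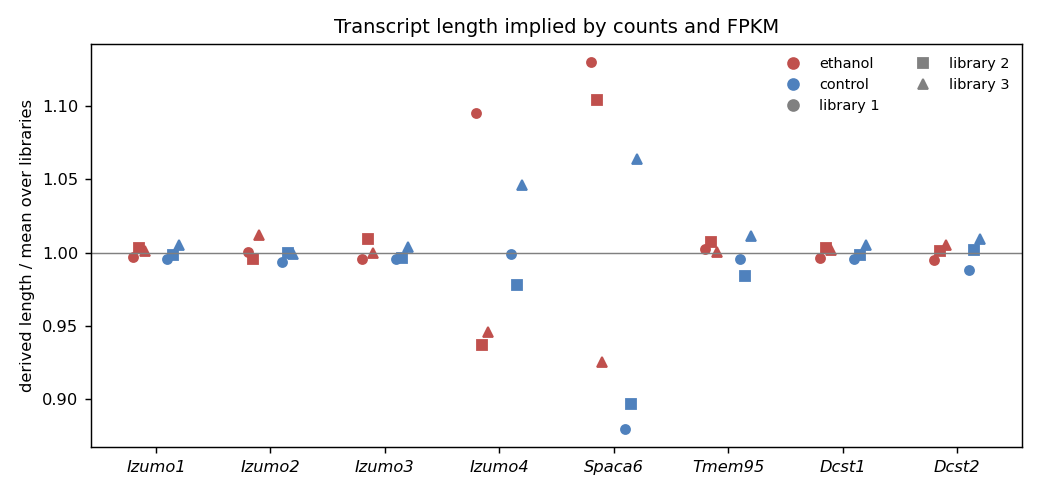
Transcript length derived from count, FPKM and library total, divided by its mean over the 6 libraries, for ethanol (red, left) and control (blue, right). Spaca6 and Izumo4 are spread, by ratios of 1.28 and 1.17 between the extremes, while the other members lie near 1.

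Other sperm genes of fusion were close to the members in direction. Of 13 listed genes 11 were in the table and 10 were tested; 0 were called, 9 were below 0 and 1 above, and the median log2 fold change was -0.06. Tmem81, whose product joins IZUMO1 and SPACA6 in one complex on sperm, was at 30.1 CPM with ethanol and 33.7 CPM in controls, a log2 fold change of -0.16 without overlap between the diets (edgeR adjusted p = 0.368). Izumo1 over Tmem81 in TPM was 3.25, 3.91 and 3.62 with ethanol, against 3.70, 3.53 and 3.76 in controls. Spaca1, an acrosomal membrane protein, stood at -0.20 (adjusted p = 0.331), also without overlap. These were the 2 of the 10 tested genes that lay lower without overlap, as did 9.02% of all tested genes. Tssk6, a kinase that sperm need to move IZUMO1 to the right part of the head, stood at -0.48 (adjusted p = 0.246), with overlap. Spesp1, of the equatorial segment, stood at -0.12 (adjusted p = 0.422).

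Of 24 genes that sperm use to bind the zona or to bring ADAM3 to the surface, 24 were tested, 0 were called, and 20 were below 0 with a median log2 fold change of -0.05. Values were -0.17 for Zp3r, an acrosomal matrix protein, -0.18 for the hyaluronidase Spam1, 0.21 for the serine protease Prss55 and -0.25 for the sulfotransferase Tpst2. The round spermatid list had 14 of 16 genes below 0 and a median of -0.10, close to that of the members, and the spermatocyte list had 11 of 14 below 0 and a median of -0.10. The elongating spermatid list had 7 of 15 below 0 and a median of 0.0096.

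None of the genes of the lists for other cells passed the adjusted edgeR test, and their summed levels are given here beside the members' values. DESeq2 did call some of them. Among those called higher were Hsd3b6 (DESeq2 adjusted p = 0.00715), Cst12 (0.00847), Hbb-bt (0.00847), Cst9 (0.0104) and Pdgfra (0.0207). Among those called lower were Rec8 (DESeq2 adjusted p = 0.00333), Id4 (0.00878) and Cyp11a1 (0.0385). Hsd3b6 and Cyp11a1 both belong to the Leydig list, so its called genes went in both directions. Over all 18265 genes DESeq2 called 1.11% higher and 0.695% lower. The Sertoli list of 14 genes had 13 above 0, a median of 0.28 and a summed level of 1256 to 1430 CPM with ethanol against 1078 to 1155 CPM in controls, without overlap. Clu alone made up a large part of that sum, at 647 to 741 CPM with ethanol and 566 to 600 CPM in controls. The list of peritubular, endothelial and macrophage genes had 9 of 9 above 0. It summed to 166 to 181 CPM with ethanol against 150 to 159 CPM in controls, without overlap. The tested genes of the list of epididymis, fat and blood had 7 of 7 above 0. They summed to 42.9 to 51.1 CPM with ethanol against 21.7 to 36.8 CPM in controls, also without overlap. Of these genes, the globin genes Hba-a1, Hbb-bs and Hbb-bt lay higher with ethanol without overlap, and each of the others overlapped. Of all tested genes, 9.76% lay higher without overlap. The spermatogonia list had 8 of 10 above 0, and the Leydig list 3 of 8, from -1.30 for Cyp11a1 to 0.55 for Hsd3b6. The spermatocyte list summed to 2187 to 2318 CPM with ethanol and 2475 to 2527 CPM in controls, also without overlap, while the round spermatid list overlapped at 3639 to 3858 and 3617 to 4131 CPM. In bulk tissue, fewer cells of a type and less RNA per cell cannot be told apart, and the part of cell composition in the members' values was not tested. With libraries scaled to the summed round spermatid list, the members lay between -0.22 and -0.0044 with a median of -0.05, and all tested genes then had a median of 0.0428.

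Most genes of the egg side were at or near 0. Izumo1r, the gene of JUNO, and the oocyte genes Zp2 and Oosp1 had 0 reads in all 6 libraries. Zp1, Zp3 and Astl had at most 10 reads in a library. The tetraspanin genes Cd9 and Cd81, which many somatic cells also express, were the 2 tested genes of that list, with log2 fold changes of 0.02 and 0.09. Cd9 was at 6.58 to 7.96 TPM with ethanol and 6.75 to 7.15 TPM in controls, and Cd81 at 68.2 to 74.4 TPM with ethanol and 57.1 to 72.1 TPM in controls, a level like that of Dcst1. Dcstamp and Ocstamp, relatives of the Dcst genes that act in the fusion of osteoclasts, had at most 8 and 15 reads in a library.

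The genes whose pattern over the 6 libraries was most like that of Izumo1 were Ankrd7, 1700031L13Rik and Spice1. The measure was the root mean square difference of centred log2 CPM, over 10476 genes that averaged 10 CPM or more, and it was 0.0203, 0.0235 and 0.0297 for these genes against a median of 0.151. Among the members Izumo3 came nearest, at 0.0694 and rank 287, and Izumo2 followed at 0.106 and rank 1911. Izumo4 was at 0.123, Spaca6 at 0.128, Dcst2 at 0.147 and Dcst1 at 0.159. Tmem95, which is below the 10 CPM minimum and has no rank, was least like Izumo1 at 0.352. The libraries are the same for every gene, so library-wide differences enter each of these values.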

How the data were processed

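RNA-seq of mouse testis from 3 ethanol-fed and 3 control-fed libraries was analysed. Per the labels' protocols, ribosomal RNA was removed and a stranded kit for total RNA was used. Per the submitters' processing notes, HISAT2 aligned the reads and the build was mm10. The sources used here do not give the version of HISAT2, how reads were counted or which annotation was used. Read counts per gene were deposited without normalization, with FPKM and TPM computed by the authors, per the file headers. There were 0 sample columns outside these libraries, and every pair of libraries differed beyond sampling noise (lowest mean chi-square over genes 7.59, against an expected 1).

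Counts were filtered by filterByExpr, scaled by TMM and compared by edgeR 4.0.16 (R 4.3.3), quasi-likelihood F-test, no covariate, Benjamini-Hochberg adjustment at 0.05; CPM values are TMM-scaled. Standard errors were derived from fold changes and F statistics. The procedure was tested on simulated data. DESeq2 1.42.0 and limma 3.58.1 served as alternatives. The members and lists were chosen with earlier results of these data known. All members are named; from each other list at most 4 genes of smallest p, or markers near 0; and the 3 genes nearest Izumo1. Of the list symbols, Fimp and Frey1 were not matched. Sequences are from RefSeq and exons from GENCODE M21.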

Additional observations from a re-analysis of the deposited data

How the results depend on the processing

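Over 18 alternatives per member, 0 members were called in any, with a lowest adjusted p of 0.167 (Tmem95 without ethanol library 1). All 8 stayed below 0 in 16 of the alternatives; Izumo4 turned to 0.00718 on log2(TPM + 1) and 0.00724 on log2(TPM + 0.1), where all tested genes had medians of 0.0438 and 0.0579, against 0.0065 in the edgeR fit. Izumo1 lay between -0.25 and -0.13, Tmem95 between -0.58 and -0.09. Over all genes, the counts called higher and lower were 203 and 127 with DESeq2, 3 and 2 with limma-voom, 5 and 10 with the replicate block, and 4 and 1 at an adjusted p of 0.1; upper-quartile scaling and the filter of 1 CPM in 3 libraries each called 2 higher and 0 lower. With 1 library left out they ranged from 0 to 1 higher and from 0 to 2 lower. Deviations of same-numbered libraries correlated at -0.143, 0.0287 and 0.417 for numbers 1, 2 and 3, over 0.1 for number 3 alone, so the numbers were not taken to pair the samples, and the block changed no member's call (Izumo1 -0.19, adjusted p = 0.29). A p that misses the threshold does not show the diets to be alike: with 3 libraries a diet, the interval of Tmem95 still allows folds from 0.620 to 1.11, and that of Spaca6 folds from 0.874 to 1.08.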

Other observations

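Fut1, the gene that ends just upstream of Izumo1 on the same strand, had 0 reads in each of the 3 ethanol libraries, against 12, 9 and 9 reads in control libraries 1, 2 and 3. It was named after its values were seen, and these counts are too low to carry a test here.

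Deviations of single libraries from their diet's mean correlated in both directions between the diets, over genes that averaged 5 CPM or more. Ethanol library 1 correlated with control library 2 at 0.466 and with control library 3 at -0.351. Ethanol library 3 correlated with control library 3 at 0.417 and with control library 2 at -0.449. The other pairs lay between -0.143 and 0.131. These are correlations across genes, which are not independent replicates. The 3 deviations of a diet sum to 0 by construction, so these correlations are tied to each other. The part of the deviations in the values of Tmem95 was not tested.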
